A study of Mus musculus with 6 samples.

Results

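The proteasome genes were followed in mouse Th17 cultures grown with oligomycin, an inhibitor of the mitochondrial ATP synthase, and in cultures grown with its vehicle DMSO. The genes were taken by name, as rows of the expression table that name 1 gene whose symbol starts with Psma, Psmb, Psmc or Psmd and a digit. That gave 37 of 10041 rows. 13 encode the constitutive core (7 Psma and 6 Psmb genes), 20 belong to the cap (6 Psmc and 14 Psmd genes) and 3 are the immunoproteasome genes Psmb8, Psmb9 and Psmb10. The last, Psmc3ip, shares the name only: it encodes a recombination protein that binds the product of Psmc3, and it is kept apart. Psmb5, a catalytic core subunit, stood in a row combined with the microRNA gene Mir686 and was not analysed here. All 37 passed the filter on low values.

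Both groups started as naive CD4 T cells and were stimulated for 48 h through the T cell receptor and its partner CD28, with 10 µg/ml of antibody to CD3e fixed to the plate and 1 µg/ml of antibody to CD28. All 6 also received the cytokines that drive the Th17 programme, which were 20 ng/ml of IL-6, 10 ng/ml of IL-23 and 2.5 ng/ml of TGF-β1. The 3 oligomycin libraries came from cultures with 2.5 ng/ml of the drug and the 3 DMSO libraries from cultures without it. Levels are FPKM, fragment counts scaled to transcript length and library size, so levels of different genes can be set side by side. The sample titles carry the numbers 17, 42 and 43 in both groups, which may pair the samples, but the columns of the table are numbered 1 to 3 and could not be tied to them. The labels name no strain, sex or age of the mice and do not say whether replicates came from separate animals or cultures, so p-values measure the spread between these libraries, which may be technical. The T cell genes Cd3e, Cd3g, Cd4, Lck and Cd28 summed to 664.6, 675.3 and 586.3 FPKM with oligomycin and to 724, 678.5 and 633.4 FPKM with DMSO; of them Cd28 was called lower (log2 change -0.53, adjusted p = 0.0422), and Cd3e and Cd3g changed by 0.24 and 0.21 without passing the test. Of the defining genes of other blood cells, Cd68 (myeloid, 1 of 5 genes), Klrd1 (natural killer, 1 of 3) and Cd8b1 (CD8 T cells, 1 of 2) could be read, and the others, with all those of B and dendritic cells, were not analysed here. Cd68 lay between 2.388 and 5.072 FPKM with oligomycin and between 1.08 and 2.067 FPKM with DMSO, and Klrd1 between 5.534 and 23.77 FPKM with oligomycin and between 12.75 and 34.62 FPKM with DMSO. Cd8b1 was between 2.409 and 3.302 FPKM with oligomycin and between 2.63 and 3.121 FPKM with DMSO. Small RNA rows took 80.19% to 82.17% of the summed FPKM in oligomycin libraries and 71.14% to 78% in DMSO libraries. The part of other cells and of the small RNA share in the results was not tested. Of the Th17 genes, Il17a averaged 12.5 ± 2.45 FPKM with oligomycin and 247 ± 15.4 FPKM with DMSO (SD, n = 3 each).

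The proteasome is the barrel-shaped protease that breaks down proteins tagged with ubiquitin. Its core is built of outer rings of alpha subunits (Psma genes), which gate the entrance, and inner rings of beta subunits (Psmb genes), some of which cut peptide bonds. The cap binds ubiquitin, unfolds the substrate with a ring of ATPases (Psmc genes) and removes the ubiquitin with the help of the non-ATPase subunits (Psmd genes). In lymphocytes and after interferon, Psmb8, Psmb9 and Psmb10 replace Psmb5, Psmb6 and Psmb7 as catalytic subunits, which gives the immunoproteasome and changes the peptides offered to T cells.

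Most constitutive subunit genes had lower levels with oligomycin, mostly by a small amount, but few passed the test one by one. The log2 changes differed between genes, from -0.66 (Psmd13) to 0.31 (Psmc2). Of 33 core and cap genes, 31 had a log2 change below 0, against 50.4% of the 9986 genes tested, and the 2 above 0 were Psmb3 (0.01) and Psmc2 (0.31). The limma test, with p-values adjusted over all tested genes and a threshold of 0.05, called 6 of them lower (18.2%, near the 16.1% of all tested genes called lower). It called 0 higher, beside 14% of all tested genes, of which 30.2% were called in either direction. 15 of the 33 had an unadjusted p under 0.05 (14 lower, and Psmc2 higher), a share of 45.5% beside 42.8% of all tested genes. The 3 oligomycin libraries lay below all 3 DMSO libraries for 17 genes (51.5%), against 24.3% of all tested genes, and above them for 1 gene (Psmc2), against 23.1%. The median log2 change was -0.27 for the core and -0.31 for the cap, beside -0.004 over all tested genes, and it was -0.10 and -0.13 after quantile normalization, where 25 of the 33 genes were below 0. With sums equalized without the small RNA rows, the medians of core and cap were -0.16 and -0.20, and 25 of the 33 genes were below 0. That scaling multiplies each library by 1 factor, and it moved the median of all genes by 0.104. It shifts nearly all genes alike, so the medians of core and cap stayed 0.26 and 0.30 below that of all genes, as without it. In bulk RNA, fewer cells of a type and less RNA per cell cannot be told apart, and each level depends on what else the library holds.

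**Figure D1:**
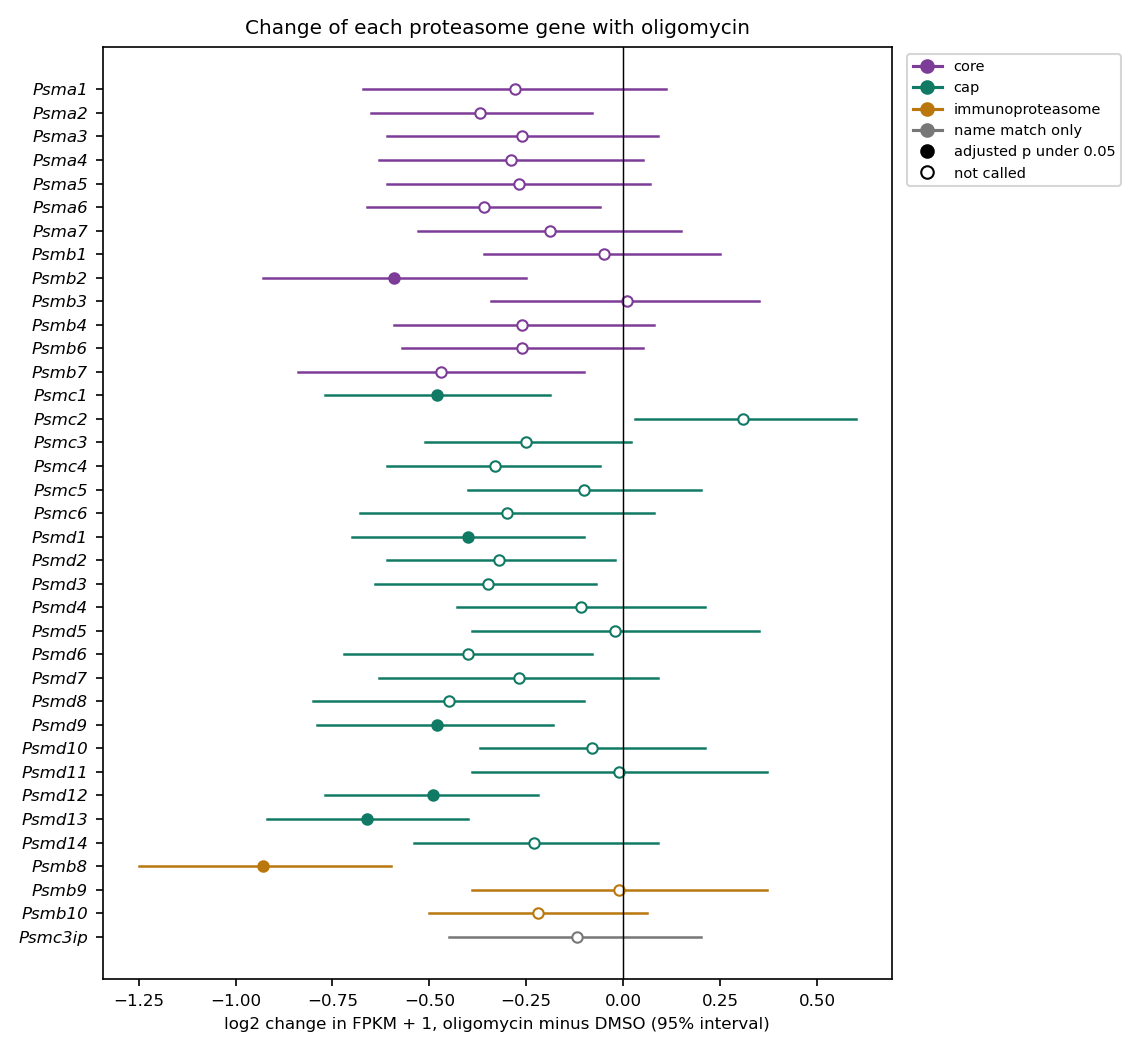
Log2 change in FPKM + 1 (x axis, oligomycin minus DMSO) of each of the 37 genes (y axis), with the 95% interval of the limma fit as a line, filled points for an adjusted p under 0.05 and colours for the class. Nearly all points lie left of 0, Psmb8 lies farthest left at -0.93 and Psmc2 farthest right at 0.31.

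The difference was uneven across the oligomycin libraries and ran the same way in core and cap. The summed level of the 33 genes was 4545, 3561 and 3988 FPKM in oligomycin libraries 1, 2 and 3 and 5007, 4897 and 4769 FPKM in DMSO libraries 1, 2 and 3. All oligomycin sums were below all DMSO sums, with library 1 nearest to them. Among the oligomycin libraries, library 1 held the highest value for 30 of the 33 genes, and library 2 held the lowest for 26 of them. Over all tested genes library 1 was highest for 4157 of 9986 and library 2 lowest for 3377. Library 1 reached the lowest DMSO value for 16 of the 33 genes, library 2 for 3 and library 3 for 6. Of the 9986 tested genes, they reached it for 6550, 6093 and 5788. Without oligomycin library 1 the test called 5 core and 11 cap genes lower, beside 1861 of all 9915 tested genes. Without any 1 of the other libraries it called 0 core genes and 1 or 2 cap genes lower. Calls over all tested genes, in either direction, were then also fewer, at 1769 to 2424, against 3248 without oligomycin library 1. The summed cap level was 0.787, 0.832 and 0.758 times the summed core level in the oligomycin libraries, against 0.759, 0.792 and 0.84 times in the DMSO libraries, so the groups overlapped and core and cap were not seen to part.

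**Figure D2:**
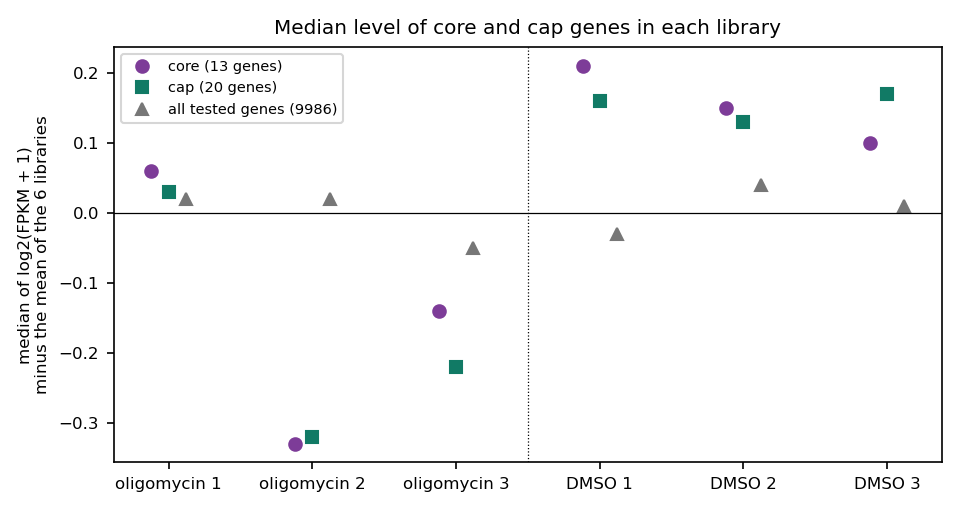
Median over the core (13 genes), the cap (20 genes) and all 9986 tested genes of log2(FPKM + 1) minus the mean of the 6 libraries (y axis), for each library (x axis). Core and cap move together from library to library: in oligomycin library 2 they stand at -0.33 and -0.32, in oligomycin library 1 at 0.06 and 0.03, and in the DMSO libraries between 0.10 and 0.21.

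In the alpha ring, all 7 genes had lower means with oligomycin, by 0.19 to 0.37 on the log2 scale, and 0 were called. Psma2 came closest, at 197.8, 166 and 189.2 FPKM with oligomycin, against 251.2, 228.8 and 231.9 FPKM with DMSO. Its groups did not overlap (log2 change -0.37, SE 0.12, adjusted p = 0.0556). Psma6 also had separate groups, at 216.9, 171.7 and 177 FPKM with oligomycin and 245.9, 234.4 and 242.5 FPKM with DMSO (adjusted p = 0.0703). For Psma1, Psma3, Psma4, Psma5 and Psma7 the groups overlapped and the log2 changes were -0.28, -0.26, -0.29, -0.27 and -0.19. The transcript levels of the ring were far from alike. Psma7 averaged 312 ± 44.6 FPKM with oligomycin and 353 ± 24.7 FPKM with DMSO, while Psma3 averaged 10.5 ± 1.44 FPKM with oligomycin and 12.9 ± 2.19 FPKM with DMSO (SD, n = 3 each). Psma3 had near-identical transcripts of 4 other genes in the annotation and Psma5, at 23.2 ± 3.58 FPKM with oligomycin and 28.1 ± 3.68 FPKM with DMSO, had 2, so reads may have been split and the levels of both are uncertain. The same holds for Psma4, Psmb3, Psmc1, Psmd2 and Psmd11, and counting also exon overlaps with other genes and loci that carry more than 1 row, 7 core and 13 cap genes were free of any such overlap.

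In the beta rings 1 of 6 constitutive genes fell (16.7%, about the 16.1% of all tested genes). Psmb2, a structural subunit on chromosome 4 (126677643 to 126709715, GRCm38), stood at 170.5, 124.1 and 131.3 FPKM with oligomycin, against 210.4, 228.2 and 197.8 FPKM with DMSO. The groups did not overlap, and the oligomycin mean was lower by 33.1% (log2 change -0.59, SE 0.15, adjusted p = 0.0195). The call was lost without any library other than oligomycin library 1 (adjusted p from 0.05 to 0.0689). Psmb7, which cuts after basic residues, stood at 227.3, 150.2 and 182.8 FPKM with oligomycin and 270.3, 250.5 and 246.8 FPKM with DMSO. These groups were also separate, but the gene did not pass the test (log2 change -0.47, SE 0.16, adjusted p = 0.0584). Psmb6, which cuts after acidic residues, stood at 194.3, 145 and 158.9 FPKM with oligomycin and 197.4, 200.4 and 195.1 FPKM with DMSO, a narrow separation set by oligomycin library 1 (log2 change -0.26, adjusted p = 0.181). Psmb4, the most abundant of the 37 transcripts, had 466.7, 367.2 and 440.1 FPKM with oligomycin and 546.5, 477.6 and 494.5 FPKM with DMSO (log2 change -0.26, adjusted p = 0.214). Psmb1 and Psmb3 showed little difference, with log2 changes of -0.05 (95% interval -0.36 to 0.25) and 0.01 (-0.34 to 0.35); the sign of Psmb1 turned under quantile normalization (0.14) and with equal sums (0.06).

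**Figure D3:**
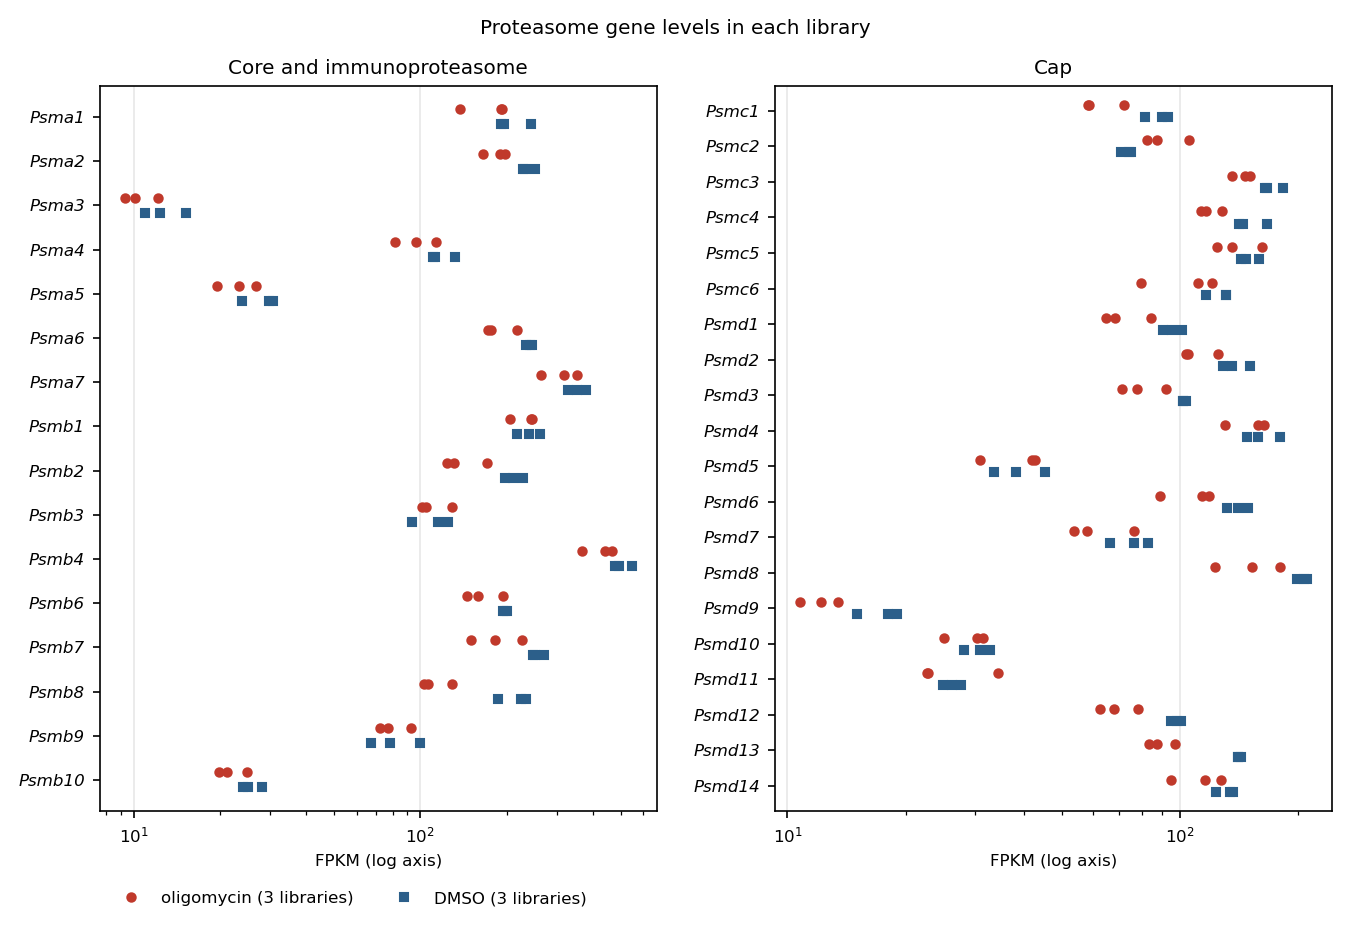
FPKM on a log axis (x) of each core, immunoproteasome and cap gene (y), with 1 point per library, oligomycin as circles above DMSO as squares. For 17 core and cap genes and for Psmb8 every circle lies left of every square, and for Psmc2 every circle lies right of them.

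In the cap, 5 of 20 genes fell (25%, against 16.1% of all tested genes). Psmd13, a subunit of the lid that carries the deubiquitinating enzyme, moved the most. It lies on chromosome 7 (140882394 to 140898642) and stood at 97.01, 83.56 and 87.4 FPKM with oligomycin, against 140.4, 143.5 and 140.5 FPKM with DMSO. The DMSO libraries lay close together (141 ± 1.78 FPKM, against 89.3 ± 6.93 FPKM with oligomycin; SD, n = 3 each), and every oligomycin library was well below them. The oligomycin mean was 36.9% lower (log2 change -0.66, SE 0.11, adjusted p = 0.00359), and the call held without any 1 library (adjusted p from 0.0029 to 0.0208). Annotated exons of Psmd13 overlap 342 bases of exons of Sirt3 on the opposite strand, and it is not stated whether fragments were counted by strand. Sirt3 had 2.969, 3.83 and 4.458 FPKM with oligomycin and 3.997, 4.796 and 2.854 FPKM with DMSO.

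The other cap genes that fell were Psmd12, Psmc1, Psmd9 and Psmd1. Psmd12, a further lid subunit, stood at 78.47, 62.62 and 67.89 FPKM with oligomycin, against 100.6, 98.47 and 95.1 FPKM with DMSO (log2 change -0.49, SE 0.12, adjusted p = 0.0167). Psmc1, of the ATPase ring, stood at 72.32, 58.72 and 58.48 FPKM with oligomycin, against 93.22, 81.57 and 90.02 FPKM with DMSO (log2 change -0.48, adjusted p = 0.0228). Both had separate groups. Psmd9, a chaperone that holds ATPases during assembly of the cap and is absent from the finished particle, stood at 13.49, 10.76 and 12.15 FPKM with oligomycin, against 15.06, 18 and 18.98 FPKM with DMSO (log2 change -0.48, adjusted p = 0.0277). Psmd1, a large scaffold of the base of the cap, stood at 84.7, 65 and 68.53 FPKM with oligomycin, against 95.7, 90.65 and 101.3 FPKM with DMSO (log2 change -0.40, adjusted p = 0.0491). None of these 4 calls held throughout the omission of single libraries. Psmd12 was lost without oligomycin library 3 or any DMSO library (adjusted p from 0.0535 to 0.0631) and Psmc1 without DMSO library 1 or 3 or oligomycin library 2 or 3 (0.0549 to 0.0846). Psmd9 was lost without DMSO library 2 or 3 or oligomycin library 2 or 3 (0.0653 to 0.107), and Psmd1 without any library other than oligomycin library 1 (0.0857 to 0.163). Psmd1 also lost its call with a pseudocount of 5 (0.0501), without a filter or with a minimum of 5 FPKM (0.0507 in both), without the intensity trend (0.0583), after quantile normalization (0.147) and with equal sums (0.108), Psmc1 after quantile normalization (0.0575) and Psmd9 with equal sums (0.0664).

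Within the ATPase ring the genes did not move alike. Psmc2 encodes an ATPase of that ring, and it stood at 105.8, 82.53 and 87.71 FPKM with oligomycin, against 74.23, 71.02 and 75.08 FPKM with DMSO. All oligomycin values were above all DMSO values, the opposite of Psmc1, Psmc3 and Psmc4. The log2 change of 0.31 (SE 0.13, 95% interval 0.03 to 0.60) did not pass the test (adjusted p = 0.0914), although it did after quantile normalization (0.47, adjusted p = 0.0102) and with sums equalized without small RNA rows (0.42, adjusted p = 0.0247). Psmc3 and Psmc4 had separate groups and changes of -0.25 and -0.33, and Psmc6 and Psmc5 had overlapping groups and changes of -0.30 and -0.10.

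Of the lid and scaffold genes that were not called, Psmd2, Psmd3, Psmd6 and Psmd8 had separate groups, with log2 changes of -0.32, -0.35, -0.40 and -0.45 and adjusted p from 0.0555 (Psmd8) to 0.0961 (Psmd2). Psmd2 forms the platform on which ubiquitin shuttles dock. Psmd8 stood at 180.7, 123.2 and 152.6 FPKM with oligomycin and 210.7, 199.6 and 207.3 FPKM with DMSO. Psmd14, the deubiquitinating enzyme of the lid, and its partner Psmd7 had overlapping groups and log2 changes of -0.23 and -0.27. Psmd4, a receptor for ubiquitin chains, and Psmd11, of the lid, changed by -0.11 (95% interval -0.43 to 0.21) and -0.01 (-0.39 to 0.37). The assembly chaperones Psmd5 and Psmd10 changed by -0.02 and -0.08, also with overlapping groups. The intervals of these 4 genes reach below the median of the cap, so a fall of that size was not shown to be absent from them. Under quantile normalization, and again with equal sums, the signs of Psmc5, Psmd4, Psmd5 and Psmd11 turned positive.

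The immunoproteasome genes did not move as a set. Psmb8, which replaces Psmb5, fell to 106.5, 128.6 and 103 FPKM with oligomycin, against 224.7, 233.8 and 186.1 FPKM with DMSO. The groups were far apart, the oligomycin mean was 0.524 times the DMSO mean, and the log2 change of -0.93 (SE 0.14, 95% interval -1.25 to -0.60, adjusted p = 0.00238) was the largest of the 37. It passed the test without any 1 library (adjusted p from 0.002 to 0.0127). Psmb9, which replaces Psmb6, stood at 72.29, 92.54 and 76.96 FPKM with oligomycin and 78.19, 100 and 67.04 FPKM with DMSO, with groups that overlapped throughout (log2 change -0.01, 95% interval -0.39 to 0.37, adjusted p = 0.971). Psmb10, which replaces Psmb7, stood at 19.91, 24.88 and 21.14 FPKM with oligomycin and 28.02, 25.11 and 24.02 FPKM with DMSO (log2 change -0.22, 95% interval -0.50 to 0.06, adjusted p = 0.209). All 3 were highest in oligomycin library 2 among the oligomycin libraries, where 26 of the 33 constitutive genes were lowest.

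Psmb8 and Psmb9 were also compared as a ratio within each library. The Psmb8 level was 1.47, 1.39 and 1.34 times the Psmb9 level in the oligomycin libraries, against 2.87, 2.34 and 2.78 times in the DMSO libraries. The groups did not overlap, and the log2 ratio differed by -0.92. An exact 2-sided permutation test over the libraries gave p = 0.1, the smallest that 3 against 3 libraries allow, and 0.3 after adjustment over the 3 ratios computed; this ratio was chosen after its values were seen. The ratios of immunoproteasome to constitutive partner did not separate the groups. Psmb9 over Psmb6 was 0.372, 0.638 and 0.484 with oligomycin and 0.396, 0.499 and 0.344 with DMSO (exact permutation p = 0.5). Psmb10 over Psmb7 was 0.0876, 0.166 and 0.116 with oligomycin and 0.104, 0.1 and 0.0973 with DMSO (exact permutation p = 0.5). The ratio of Psmb8 to its own partner could not be formed without Psmb5. Psmc3ip, the gene that only shares the name, averaged 13.2 ± 2.06 FPKM with oligomycin and 14.4 ± 1.37 FPKM with DMSO (SD, n = 3 each; log2 change -0.12, adjusted p = 0.529).

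Psmb8 and Psmb9 are neighbours in the MHC region of chromosome 17, where they alternate with the genes of the peptide transporter that feeds MHC class I: Psmb9 (34182099 to 34187330), Tap1 (34187556 to 34197225), Psmb8 (34198195 to 34201454) and Tap2 (34204479 to 34216321). Tap1 stood at 66.82, 86.7 and 71.27 FPKM with oligomycin and 66.92, 67.11 and 56.41 FPKM with DMSO (log2 change 0.23, adjusted p = 0.23). Tap2 stood at 46.92, 61.66 and 41.13 FPKM with oligomycin and 48.29, 51.05 and 43.51 FPKM with DMSO (log2 change 0.05, adjusted p = 0.83). Psmb8 alone of these 4 had separate groups. Annotated exons of Psmb9 and Tap1 share 212 bases on opposite strands, and exons of Psmb8 overlap Gm20496, also on the opposite strand, so fragments there cannot be assigned without strand.

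**Figure D4:**
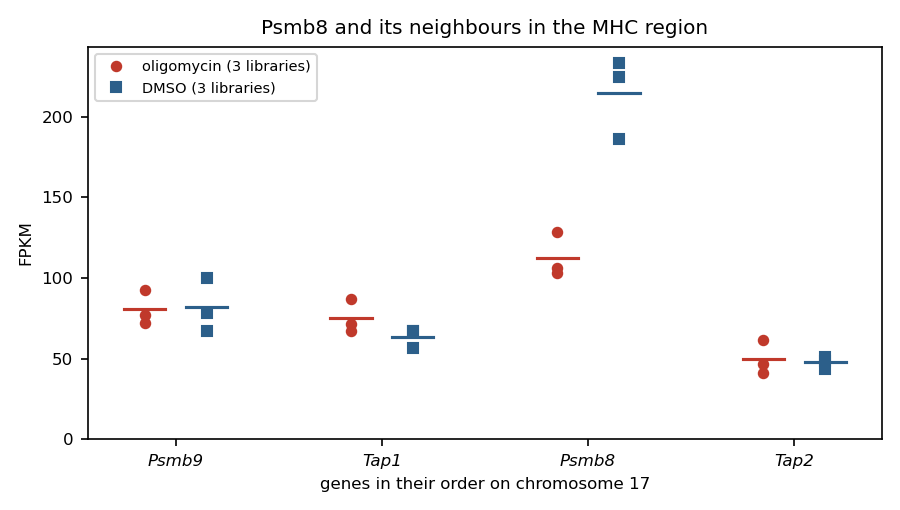
FPKM (y axis, from 0) of Psmb9, Tap1, Psmb8 and Tap2 in their order along chromosome 17 (x axis), with 1 point per library, oligomycin left of DMSO, and the group mean as a bar. The oligomycin points of Psmb8 lie between 103 and 128.6 and the DMSO points between 186.1 and 233.8, while the other 3 genes overlap.

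The promoters of the neighbours Psmb8 and Psmb9, of the cap genes Psmd13 and Psmd12 that fell and of Psmc2 are shown so that genes with unlike changes can be set side by side. Each runs from 250 bases before the start of transcription to 50 bases after it (RefSeq, GRCm38.p6). Capitals mark matches on either strand to TGACNNNGC (the antioxidant response element bound by NFE2L1 and its relatives), CCAAT (bound by NF-Y), CGGAAG (bound by ETS factors). None of these windows held the core of the interferon-stimulated response element, which was searched as well after the values were known.
Psmb8 (chr17:34197945-34198244, plus strand): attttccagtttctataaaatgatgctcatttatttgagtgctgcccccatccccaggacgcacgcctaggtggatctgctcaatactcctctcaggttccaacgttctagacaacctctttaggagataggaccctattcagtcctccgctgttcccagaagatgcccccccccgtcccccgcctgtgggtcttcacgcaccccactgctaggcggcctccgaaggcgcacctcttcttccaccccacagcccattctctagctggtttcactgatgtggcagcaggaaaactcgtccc
Psmb9 (chr17:34187281-34187580, minus strand): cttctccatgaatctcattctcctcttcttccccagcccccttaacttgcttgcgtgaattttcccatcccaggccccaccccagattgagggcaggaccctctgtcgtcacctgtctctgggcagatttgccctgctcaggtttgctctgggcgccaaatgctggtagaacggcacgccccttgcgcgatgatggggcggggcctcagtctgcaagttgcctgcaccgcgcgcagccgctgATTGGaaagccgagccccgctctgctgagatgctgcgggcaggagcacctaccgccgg
Psmd13 (chr7:140882144-140882443, plus strand): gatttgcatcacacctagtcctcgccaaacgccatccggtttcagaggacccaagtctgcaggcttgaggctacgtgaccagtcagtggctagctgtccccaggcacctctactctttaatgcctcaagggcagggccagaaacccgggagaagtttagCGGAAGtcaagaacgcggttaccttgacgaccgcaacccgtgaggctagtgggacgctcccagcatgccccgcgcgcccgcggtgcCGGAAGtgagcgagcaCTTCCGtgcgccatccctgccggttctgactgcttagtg
Psmd12 (chr11:107479278-107479577, plus strand): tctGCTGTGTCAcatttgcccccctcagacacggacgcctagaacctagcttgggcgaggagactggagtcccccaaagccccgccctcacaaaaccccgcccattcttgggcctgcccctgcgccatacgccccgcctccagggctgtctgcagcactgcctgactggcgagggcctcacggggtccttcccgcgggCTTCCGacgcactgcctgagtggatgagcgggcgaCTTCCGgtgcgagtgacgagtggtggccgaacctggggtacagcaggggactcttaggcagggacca
Psmc2 (chr5:21785025-21785324, plus strand): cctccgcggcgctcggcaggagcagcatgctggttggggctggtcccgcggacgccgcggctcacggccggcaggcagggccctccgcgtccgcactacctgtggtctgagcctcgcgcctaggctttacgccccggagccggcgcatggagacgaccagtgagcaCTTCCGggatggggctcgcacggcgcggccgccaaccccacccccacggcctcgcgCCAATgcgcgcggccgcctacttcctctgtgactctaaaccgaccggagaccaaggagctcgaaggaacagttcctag
The Psmb8 window held none of these motifs, and the Psmb9 window held CCAAT once, on the other strand, starting 8 bases before the start. CGGAAG stood 3 times in the Psmd13 window, 2 times in that of Psmd12 and once in that of Psmc2, which also held CCAAT. The Psmd12 window held TGACNNNGC 247 bases before the start.

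Windows were found for 31 of the 37 genes, 27 of them core or cap genes; Psmb1, Psmb2, Psmb7, Psmc3, Psmd3 and Psmd7 had none in the table used. CGGAAG was in 16 of the 27 core and cap windows (59.3%), against 36.4% of 7104 windows of tested genes. CCAAT was in 11 (40.7%, against 40.2%) and TGACNNNGC in 4, those of Psmb6, Psmc6, Psmd9 and Psmd12 (14.8%, against 15.4%). The core of the interferon-stimulated response element was in 3, those of Psmb3, Psmd4 and Psmd9 (11.1%, against 2.87%). A match describes the sequence only. Where a gene had several windows, members took the one nearest their deposited start and other genes the first listed. The shares thus compare windows chosen by different rules, and the effect of this was not tested.

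Of 12 tested regulators known to act on proteasome genes, 4 rose (33.3%, beside 14% of all tested genes) and 1 fell (8.33%, beside 16.1%), with a median log2 change of 0.29. Nfe2l1 encodes the transcription factor that raises proteasome gene expression when proteasome activity is short, and it rose to 42.73, 62.28 and 39.41 FPKM with oligomycin, against 21.01, 27.2 and 25.2 FPKM with DMSO (log2 change 0.93, SE 0.18, adjusted p = 0.00691). Ngly1, the enzyme that strips sugars from NFE2L1 and so enables it, rose to 24.89, 27.3 and 31.09 FPKM, against 19.02, 14.32 and 13.84 FPKM with DMSO (log2 change 0.79, adjusted p = 0.0058). Neither gene had overlapping groups. Mafk, a small partner of such factors on DNA, and Bach1, a repressor at the same elements, rose by 0.65 (adjusted p = 0.00396) and 1.00 (adjusted p = 0.00169). Nfyb, a subunit of NF-Y, fell to 32.08, 31.5 and 31.64 FPKM with oligomycin, against 50.93, 41.54 and 45.14 FPKM with DMSO (log2 change -0.51, adjusted p = 0.0112). Nfe2l2, the close relative of Nfe2l1 that answers oxidative stress, averaged 18.1 ± 2.36 FPKM with oligomycin and 16.8 ± 1.15 FPKM with DMSO (log2 change 0.10, adjusted p = 0.571). All 5 calls held without any 1 library. Nfe2l1 was thus higher in the same libraries in which 31 of 33 core and cap genes had a log2 change below 0 (25 after quantile normalization or with equal sums). These are RNA levels, and the activity of the NFE2L1 protein was not tested.

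**Figure D5:**
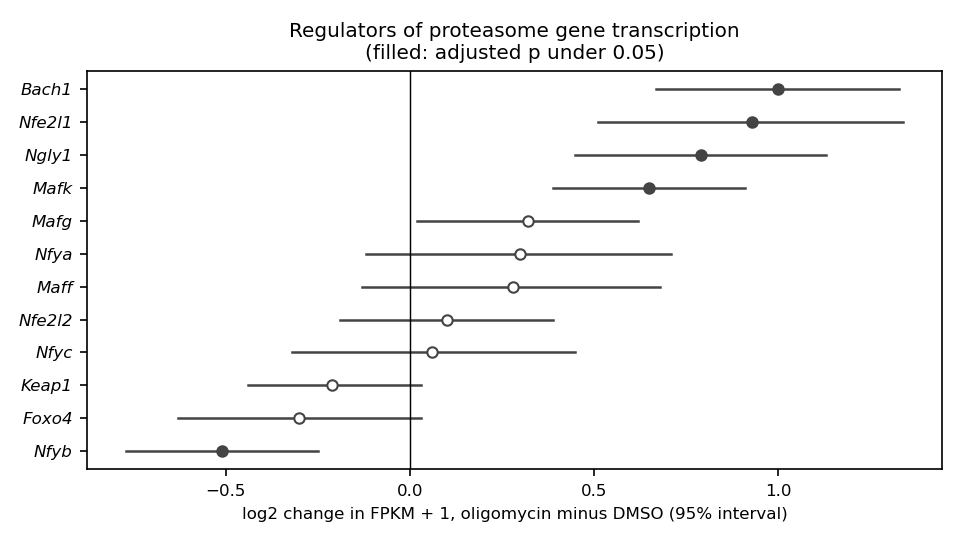
Log2 change in FPKM + 1 (x axis, oligomycin minus DMSO) of 12 regulators of proteasome transcription (y axis), with the 95% interval of the limma fit as a line and filled points for an adjusted p under 0.05. Bach1, Nfe2l1, Ngly1 and Mafk lie between 0.65 and 1.00, and Nfyb lies at -0.51.

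Of 5 assembly factors of the core, 1 fell and 1 rose (20% each way, near the shares of all tested genes given above), with a median log2 change of -0.18. Psmg3 fell to 23.32, 21.85 and 17.9 FPKM with oligomycin, against 30.56, 36.94 and 35.86 FPKM with DMSO (log2 change -0.69, adjusted p = 0.00683). Psmg4, its partner in alpha ring assembly, rose to 76.31, 63.11 and 71.7 FPKM, against 44.25, 58.61 and 41.84 FPKM with DMSO (log2 change 0.55, adjusted p = 0.0272). The partners thus moved in opposite directions. The call of Psmg4 was lost without DMSO library 1 or 3 or oligomycin library 1 or 3 (adjusted p from 0.0558 to 0.108), and that of Psmg3 held throughout. Psmg1, Psmg2 and Pomp, the other assembly factors, changed by 0.23, -0.18 and -0.37 and were not called, although Psmg1 was called higher after quantile normalization (0.37) and with equal sums (0.34). The activators Psme1 and Psme2, which open the gate and are induced by interferon, changed by -0.35 (adjusted p = 0.11) and -0.42 (adjusted p = 0.0809). Psme3, Psme4 and the inhibitor Psmf1 changed by -0.13, -0.32 and 0.02, so that 0 of these 5 passed the limma test, with 3 of them at an unadjusted p under 0.05, which 42.8% of all tested genes reached, and a median of -0.32.

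Of 10 further cap subunits and enzymes bound to the cap, 1 fell and 0 rose, no more than the 16.1% and 14% of all tested genes, with a median log2 change of -0.05. Uchl5, a deubiquitinating enzyme held by the cap, fell to 44.12, 29.99 and 36.66 FPKM with oligomycin, against 60.22, 50.65 and 63.7 FPKM with DMSO (log2 change -0.65, adjusted p = 0.0168). Without DMSO library 1 or 3 it was not called (adjusted p = 0.0581 and 0.0689). Txnl1, a thioredoxin bound to the cap, Shfm1, a small lid subunit, and Usp14, another deubiquitinating enzyme, changed by -0.48, -0.32 and -0.29 without passing the test, and the highest of the list was Zfand5 at 0.18. Of 10 ubiquitin genes and shuttle factors, 1 rose and 0 fell, again no more than those shares, with a median of -0.05. Sqstm1, the receptor that carries ubiquitin-tagged proteins to autophagy, stood at 99.61, 113.5 and 87.89 FPKM with oligomycin, against 63.05, 77.46 and 63.9 FPKM with DMSO (log2 change 0.55, adjusted p = 0.0195). The call was lost without DMSO library 1 or 3 (adjusted p = 0.0757 and 0.0802). Uba1, the main enzyme that activates ubiquitin, changed by 0.43 (adjusted p = 0.0604) and was called higher after quantile normalization (0.00519), with equal sums (0.015), with median-ratio scaling (0.048) and without the intensity trend (0.0453). The shuttle Rad23b changed by -0.37 (adjusted p = 0.0679) and the ubiquitin fusion gene Rps27a by -0.71 (adjusted p = 0.0962). Of 13 genes for the unfolding ATPase Vcp and its cofactors, 0 passed the limma test and 3 had an unadjusted p under 0.05 (23.1%, below the 42.8% of all tested genes), with a median of 0.03 and changes from -0.35 (Vcp) to 0.33 (Derl1, called higher after quantile normalization and with equal sums, at adjusted p = 0.0189 and 0.0206). Ubxn1, a cofactor of Vcp, changed by -0.34.

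Genes of interferon-induced peptide presentation, the company in which the immunoproteasome is usually switched on, were called at about the rate of all tested genes. Of 12 tested, 2 rose and 2 fell (16.7% each way, beside 14% and 16.1%), with a median log2 change of 0.25. B2m, the light chain of MHC class I, rose to 1227.5, 1190.9 and 1055.0 FPKM with oligomycin, against 736.6, 704.7 and 652.6 FPKM with DMSO (log2 change 0.73, adjusted p = 0.00817). Nlrc5, the activator of MHC class I genes, rose by 1.18 (adjusted p = 0.0156). Gbp2, an interferon-induced GTPase, fell to 44.46, 55.54 and 68.74 FPKM with oligomycin, against 150.6, 147.4 and 155.9 FPKM with DMSO (log2 change -1.43, adjusted p = 0.000471), and Gbp3 fell by 0.60 (adjusted p = 0.0419). The call of Gbp3 was lost without DMSO library 2 or 3 or oligomycin library 1 or 3 (adjusted p from 0.0694 to 0.132). Psmb8 thus fell along with Gbp2 and Gbp3, while B2m and Nlrc5 rose.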

How the data were processed

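RNA-seq was run on 3 oligomycin and 3 DMSO samples. The authors deposited FPKM, 1 value per gene and library; per the submitters' processing notes, the tools were Cuffdiff 2.2.1.3, Cuffnorm 2.2.1.1, Cufflinks 2.2.1.0 and TopHat2 2.1.0, on the build GRCm38 (mm10). No source used here gives the annotation, strand, filters or scaling between libraries, and depth is unknown, so no counting interval is given. Table columns were mapped to their group only, and library numbers are those of the columns. The test was that of limma 3.58.1 in R 4.3.3, run on log2(FPKM + 1) with an intensity trend and the group alone in the model, for the 9986 genes with at least 1 FPKM in at least 3 of 6 libraries. P-values are 2-sided with Benjamini-Hochberg adjustment over all tested genes, and genes under 0.05 were called. The pseudocount of 1 understates changes of low genes. The procedure was tested on simulated data. Deposited starts are printed counted from 1. Near-identical transcripts were found with blastn 2.17.0 in GENCODE M21 (at least 95% identity over 300 bases), exon overlaps from 50 bases. Named were all members and, of each other list, every gene where at most 6 were tested, otherwise the 4 with the smallest p and those that bound the range, except genes that are not reported here. Tap1, Tap2 and Nfe2l2 were named outside this rule, after their values were seen. Members and lists were chosen with earlier results of these data known. The alternatives were other pseudocounts, filters, scalings, no trend, a replicate block and leaving out each library. For promoters with several windows, members took the one nearest their deposited start and other genes the first listed.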

Additional observations from a re-analysis of the deposited data

How the results depend on the processing

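The fall of Psmb8 kept its call and direction under every alternative that included the gene, and so did that of Psmd13. When 1 library was left out, the log2 changes were -1.02 to -0.86 for Psmb8 and -0.72 to -0.61 for Psmd13. The counts of calls were less steady. When 1 library was left out, 0 to 5 core genes and 1 to 11 cap genes were lower, 0 core and 0 cap genes were higher, the core median lay between -0.37 and -0.17 and the cap median between -0.41 and -0.26. Over all tested genes 989 to 1861 were then lower and 780 to 1387 higher, and in the other pathway lists 3 to 8 lower (5 with all libraries) and 6 to 9 higher (8 with all libraries). Quantile normalization and equal sums without small RNA rows each left 3 cap genes lower and 1 higher (Psmc2). They gave 13 and 16 higher genes in the other lists. Over all 9986 tested genes, both settings also called more genes higher and fewer lower than the main fit. Calls in either direction were 2993 with quantile normalization and 3196 with equal sums, against 3013 in the main fit. The medians of core and cap were -0.10 and -0.13 after quantile normalization. Without members that have a near-identical transcript, an exon overlap or a shared locus, 1 core gene (Psmb2) and 1 cap gene (Psmd12) were lower. That alternative was chosen after seeing the data, and it left out Psmb8 and Psmd13. The numbers 17, 42 and 43, which the titles share across groups, stood on no column. Whether the column numbers pair the libraries was not settled. Deviations of libraries with the same number had correlations of 0.056, 0.247 and 0.132. Of 3 oligomycin libraries, 2 were closest to their own number. With a replicate block by column number, 3 core genes (Psma2, Psmb2 and Psmb7) were lower. So were 7 cap genes (Psmd6 and Psmd8 beside the 5 of the fit without it) and 9 genes of the other lists. In that fit 3532 of 9986 tested genes were called, against 3013 without the block.

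Signs turned for genes near 0. Quantile normalization gave 0.07 for Psma7, 0.14 for Psmb1, 0.16 for Psmb9, 0.11 for Psmc5, 0.10 for Psmd4, 0.07 for Psmd5, 0.05 for Psmd11 and 0.06 for Psme3. Equal sums gave 0.06 for Psmb1, 0.10 for Psmb9, 0.01 for Psmc5, 0.0033 for Psmd4, 0.09 for Psmd5, 0.03 for Psmd10 and 0.10 for Psmd11, and median-ratio scaling 0.0012 for Psmd11. With 1 library left out the ranges were -0.12 to 0.03 (Psmb1), -0.11 to 0.09 (Psmb3), -0.14 to 0.14 (Psmb9), -0.12 to 0.12 (Psmd5), -0.14 to 0.02 (Psmd10), -0.20 to 0.09 (Psmd11), -0.20 to 5.9e-05 (Psmc3ip), -0.06 to 0.14 (Psmf1) and -0.11 to 0.18 (Tap2). The cause was not tested. Depth is unknown and 3 libraries per group limit the precision.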
